A study of Mus musculus with 6 samples.

Results

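Transcript levels of 8 genes of the NRF2 transcription system were followed in HEI-OC1, a conditionally immortalised line from the mouse organ of Corti that is used to study hair cell toxicity. The 8 were Nfe2l2, which encodes NRF2, its inhibitor Keap1, the ligase scaffold Cul3, the related factors Nfe2l1 and Bach1, and the small MAF genes Maff, Mafg and Mafk. They were taken by symbol from the deposited count table, which lists 30438 symbols. All 8 passed the filter on low counts that left 14618 genes for testing.

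The study compared 2 groups of cells, each with 3 libraries of poly(A)-selected RNA. The control was wild-type HEI-OC1 and the other group was HEI-OC1 labelled as an Nrf2 knockout. Both were grown in DMEM at 33 °C in 10% CO2 with 10% fetal bovine serum and 1% penicillin-streptomycin, and no drug treatment is recorded for either. The submitters asked which genes go with the cisplatin resistance of the knockout cells. The edited position in Nfe2l2 and the number of clones behind the edited cells were not given in the sources used here.

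NRF2 is a cap'n'collar (CNC) basic leucine zipper protein that is made continuously and destroyed continuously: KEAP1 holds it on a CUL3 ubiquitin ligase, and oxidants or electrophiles that modify KEAP1 let NRF2 escape to the nucleus. There it pairs with a small MAF protein, which has a DNA-binding domain but no activation domain, and the pair binds antioxidant response elements at detoxification, glutathione and NADPH genes. BACH1 uses the same small MAF partners to repress an overlapping set of genes until heme removes it, and NRF1, the product of Nfe2l1, pairs with them to drive proteasome genes. In the cochlea the pathway is known mainly for protection of hair cells against noise and ototoxic drugs.

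Promoter windows were examined because several of the genes are themselves known targets of the system. The antioxidant response element core was searched as TGACNNNGC on both strands of the RefSeq windows of build GRCm38.p6, which run from 250 bases before to 50 bases after each annotated start. All 8 genes had a window, 14 windows in all. The letters were found in 4 of the 14 windows, belonging to 4 of the 8 genes: Nfe2l2, Maff, Mafg and Mafk. Of all 32851 windows, 12.4% held them, and of all 27025 genes with a window, 14%. The 100-base stretches around the matches are shown 5′ to 3′ along the gene's strand, with the match in capitals. They are shown so that the letters can be read in place, and no relation between the match and the levels was tested.
Nfe2l2: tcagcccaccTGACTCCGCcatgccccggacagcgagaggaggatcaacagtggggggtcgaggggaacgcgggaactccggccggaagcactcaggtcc
Maff: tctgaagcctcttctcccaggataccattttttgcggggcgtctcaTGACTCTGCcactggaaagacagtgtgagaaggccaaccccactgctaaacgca
Mafg: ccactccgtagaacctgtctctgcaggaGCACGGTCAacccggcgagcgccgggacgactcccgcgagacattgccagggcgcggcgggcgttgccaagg
Mafk: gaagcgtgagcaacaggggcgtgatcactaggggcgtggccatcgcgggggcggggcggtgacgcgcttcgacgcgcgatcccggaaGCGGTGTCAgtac
The Nfe2l2 stretch is chr2:75704814-75704913 on the minus strand, and its match starts 240 bases before the transcript start. The Maff stretch is chr15:79346463-79346562 on the plus strand, with the match 112 bases before the start, and the other 2 Maff windows held none. The Mafg stretch is chr11:120633698-120633797 on the minus strand, and the Mafk stretch is chr5:139791436-139791535 on the plus strand. In these 2 genes the letters lie on the strand opposite to the gene, and their first printed bases are 222 and 13 bases before the start. No match was present in the windows of Keap1, Bach1 and Cul3, with 1 window each, or of Nfe2l1, with 5. A match is a description of these letters and not a measured binding site.

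The libraries held between 29130007 and 51285343 counts, the lowest being replicate 1 labelled Nrf2 KO. Levels are in CPM, with library totals adjusted by TMM factors. Replicate 1 stood apart in the group labelled Nrf2 KO: across genes, its log2 CPM had a Pearson's r of 0.931 to 0.939 with replicates 2 and 3, which had an r of 0.995 with each other. Within the control group r was 0.978 to 0.993. Whether the replicates came from separate cultures is not stated, so p-values here reflect only the spread between these libraries, which may be technical. In bulk RNA, fewer cells of a type and less RNA per cell cannot be told apart. The labels give the line as a cochlear stem cell. Of 14 hair cell markers, 3 reached the tested levels, and Atoh1 and Slc26a5 were at 0 counts in all 6 libraries. Myo7a was called higher (1.32 ± 0.207 against 20.3 ± 8.35 CPM). The other 2 tested were not called, 1 of them with a negative log2 fold change. Of 15 supporting cell and prosensory markers, 9 were tested, and Sox2 was at 0 counts in all 6 libraries. Sox9, Fst and Bmp4 were called higher (log2 fold changes of 2.19, 2.15 and 1.25). The other 6 tested were not called, and 4 of the 9 had a negative log2 fold change. Fibroblast markers were abundant, their summed level lying between 5802 and 6889 CPM in the control libraries and between 7003 and 9053 CPM in those labelled Nrf2 KO. Of the 9 tested, 6 were called higher, and 1 was lower at an unadjusted p under 0.05 in edgeR's quasi-likelihood test. The only epithelial marker tested and 1 of 3 endothelial markers tested were called higher. The other 2 endothelial markers tested were not called but were lower at an unadjusted p under 0.05. The same held for 11.6% of all tested genes. Called lower were 1 of 4 neuron and glia markers tested and 1 of 2 leukocyte markers tested. Each of these lists summed to at most 26.2 CPM in any library. Over all tested genes 4.83% were called higher and 3.45% lower. The part of such markers in the levels of the 8 genes was not tested.

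Among the 8 genes, 2 rose in the libraries labelled Nrf2 KO, Nfe2l2 and Maff, and 1 fell, Mafk. The other 5 did not pass the test, which was edgeR's quasi-likelihood test with a Benjamini-Hochberg adjusted p under 0.05 over all genes tested. Of all tested genes, 4.83% were called higher and 3.45% lower by the same test. The median log2 fold change of the 8 genes was 0.35, against 0.04 over all tested genes. The CPM of the 2 groups did not overlap for 4 of the 8 genes, and the same held for 34.2% of all tested genes. At an unadjusted p under 0.05, 3 of the 8 were higher and 1 lower, against 13.4% and 11.6% of all tested genes. DESeq2 called 10.9% of all tested genes higher and 9.02% lower. The counts of other pathway genes below stand against these shares.

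**Figure D1:**
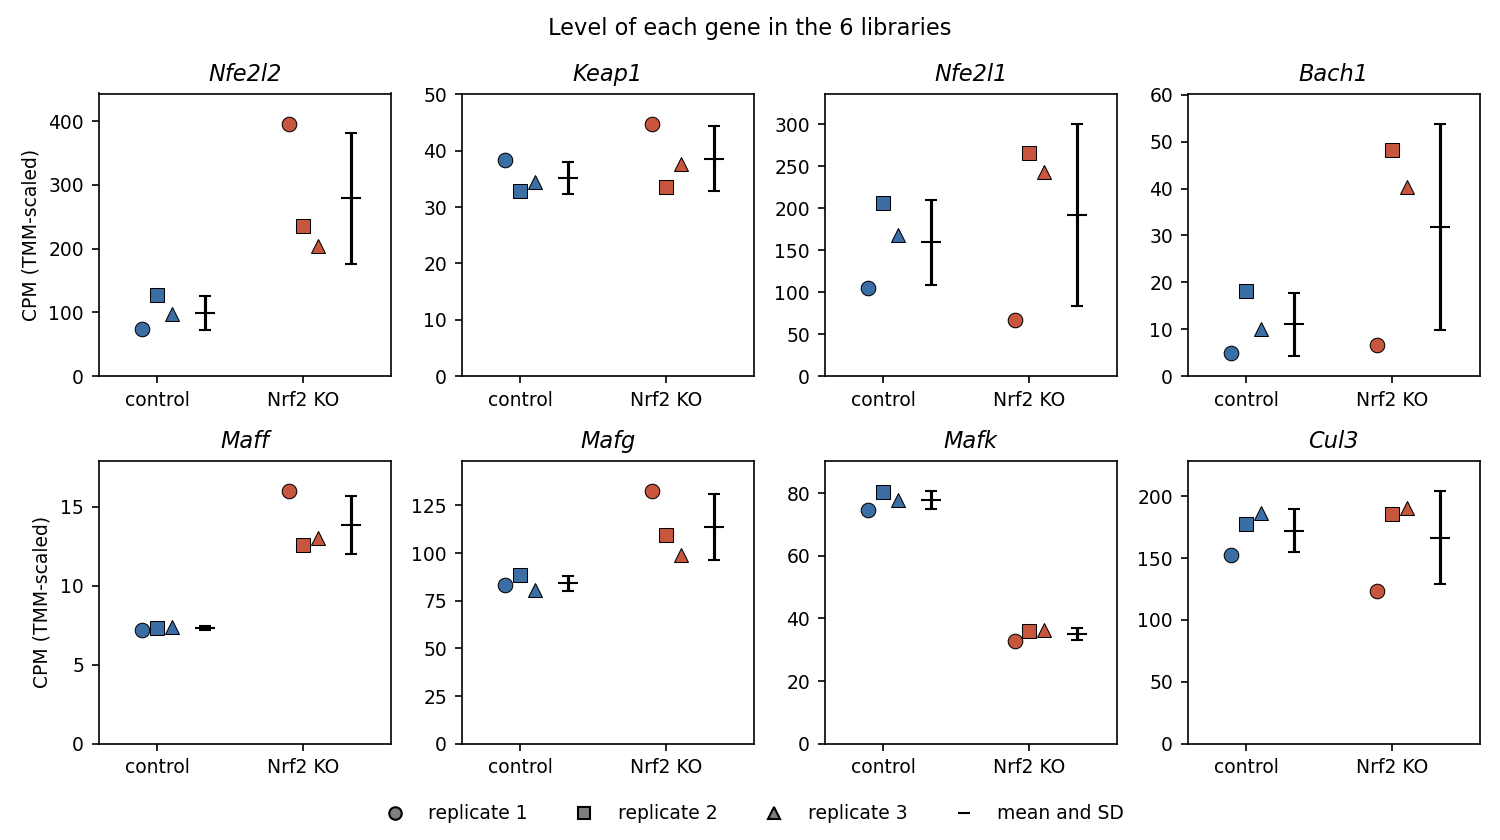
Level of each of the 8 genes in each library, in CPM with TMM scaling on axes that start at 0; points are single libraries and the bars are the mean and SD of 3. The groups are apart for Nfe2l2, Maff, Mafg and Mafk, and Bach1 and Nfe2l1 spread widely within each group.

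Nfe2l2 is the gene named as knocked out and is given first. Its level was 74.2, 126.5 and 96.7 CPM in control replicates 1 to 3, and 395.7, 235.6 and 204.5 CPM in replicates 1 to 3 labelled Nrf2 KO. Each library labelled Nrf2 KO was above each control library, so the transcript was not lost under the knockout label. This was a log2 fold change of 1.49 with a standard error (SE) of 0.33, which passed in edgeR's quasi-likelihood test after Benjamini-Hochberg adjustment (adjusted p = 0.0456). A count per gene does not show which exons were read or whether a transcript can be translated, and protein was not analysed here. The transcript level therefore cannot decide whether the label holds. The size of the difference varied with the replicate number: it was 2.41 on the log2 scale between the replicate 1 libraries, 0.90 between those of replicate 2 and 1.08 between those of replicate 3. Without replicate 1 labelled Nrf2 KO the log2 fold change was 1.15 (adjusted p = 0.0126), and without both replicate 1 libraries it was 0.98 (adjusted p = 0.00105). The first of these fits called 15.6% of tested genes higher and 14.5% lower. The second, chosen after seeing the data, called 24.0% higher and 22.1% lower. The Nfe2l2 call was lost without control replicate 1, 2 or 3 (adjusted p of 0.167, 0.102 and 0.202) and without replicate 2 or 3 labelled Nrf2 KO (0.102 and 0.0784), by the same edgeR test. It was also lost with upper-quartile scaling (0.0526) and with scaling by library size alone (0.0593).

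Keap1 encodes the adaptor that senses oxidants and presents NRF2 for degradation. Control libraries had 38.3, 32.8 and 34.4 CPM and the libraries labelled Nrf2 KO had 44.8, 33.5 and 37.6 CPM. The groups overlapped, and replicate 1 was the highest of its group in both. The log2 fold change was 0.13 (SE 0.17, edgeR quasi-likelihood, adjusted p = 0.687). Cul3 encodes the scaffold that carries KEAP1 and the ubiquitin-loading RING protein. It measured 152.7, 177.4 and 186.6 CPM in controls 1 to 3 against 123.0, 185.6 and 190.5 CPM under the knockout label. Here too the groups overlapped, with replicate 1 the lowest of its group in both. Its log2 fold change was -0.05 (SE 0.22, edgeR quasi-likelihood, adjusted p = 0.924).

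Because Keap1 did not pass the test while its substrate's transcript rose, their counts were also set against each other within each library, a quantity that does not depend on how libraries are scaled. There were 0.516, 0.259 and 0.356 Keap1 counts for each Nfe2l2 count in the control libraries. In the libraries labelled Nrf2 KO there were 0.113, 0.142 and 0.184, all below the lowest control library. The mean log2 ratio differed by -1.34, to 39.6% of the control ratio. This is not a result separate from the levels, whose log2 fold changes were 0.13 for Keap1 and 1.49 for Nfe2l2. With 3 libraries a group, an exact two-sided permutation test that exchanges all 6 libraries cannot go below p = 0.1, which is the value found here (0.14 after Benjamini-Hochberg adjustment over 7 ratios). For Cul3 against Keap1 the difference was -0.20 on the log2 scale (exact permutation p = 0.7, adjusted 0.817), with overlapping groups.

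The small MAF partners did not move together. Mafk fell, from 74.7, 80.4 and 78.0 CPM in controls 1 to 3 to 32.9, 36.0 and 36.4 CPM under the knockout label. No library of one group came near those of the other, and the differences between libraries of the same number were -1.18, -1.16 and -1.10 on the log2 scale. The log2 fold change was -1.15 (SE 0.13, edgeR quasi-likelihood, adjusted p = 0.00565), or 45.1% of the control level. Of the 8 genes Mafk had the smallest spread within groups, an SD of 0.068 on the log2 scale, a value that 2.48% of tested genes did not exceed. Leaving out control replicate 3 ended the call (adjusted p = 0.0611), with the log2 fold change at -1.15.

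Maff encodes a second small MAF protein, whose gene is known to respond to stress and inflammatory signals. It measured 7.17, 7.35 and 7.40 CPM in controls 1 to 3 against 16.0, 12.6 and 13.0 CPM under the knockout label. The groups were well apart, with replicate 1 the highest of the libraries labelled Nrf2 KO. This gave a log2 fold change of 0.92 (SE 0.18, edgeR quasi-likelihood, adjusted p = 0.0287). The call was lost without control replicate 1, 2 or 3 (adjusted p of 0.126, 0.126 and 0.170) and without replicate 2 or 3 labelled Nrf2 KO (0.0866 and 0.0995). Mafg, the third of these partners, measured 83.2, 88.3 and 80.8 CPM in controls 1 to 3 against 132.4, 109.5 and 98.8 CPM under the knockout label. Its groups did not overlap either. Its log2 fold change of 0.43 (SE 0.16) had an unadjusted p of 0.0323 by edgeR and did not pass after Benjamini-Hochberg adjustment (adjusted p = 0.158). Without both replicate 1 libraries it was 0.31 and passed (adjusted p = 0.0264). That fit, chosen after seeing the data, called 24.0% of tested genes higher and 22.1% lower. In the RefSeq gene table Mafg is overlapped by the long noncoding Gm17586, and with no stated strand setting reads of the 2 genes cannot be separated. The other 7 genes are overlapped by none there.

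The small MAF genes differ in length, so their balance was read per length, with the gene lengths implied by the authors' FPKM values (fragments normalised to gene length and library size). In the control libraries Mafk made up 63.0%, 63.5% and 64.3% of the summed small MAF level per length. In the libraries labelled Nrf2 KO it made up 30.1%, 36.6% and 38.3%, so the mean share was 63.6% ± 0.661 in the control and 35.0% ± 4.33 under the knockout label (SD, n = 3). Mafk thus had the largest share of the 3 genes in each control library and Mafg in each library labelled Nrf2 KO. The Mafg share went from 27.6% ± 0.763 to 45.0% ± 3.44 and the Maff share from 8.75% ± 0.231 to 20.0% ± 1.34. Shares sum to 100% in each library, so a fall in Mafk by itself raises the shares of the others. The level of Mafg itself did not pass the test. In the authors' deposited table, which has 1 value per group, the 3 genes summed to 35.0 FPKM in the control and 29.4 FPKM in the group labelled Nrf2 KO. Count ratios within a library need no lengths to be compared between groups. There were 10.4, 10.9 and 10.5 Mafk counts for each Maff count in controls 1 to 3 against 2.06, 2.86 and 2.79 under the knockout label. The mean log2 ratio of Mafk to Maff differed by -2.06, that of Mafk to Mafg by -1.57 and that of Maff to Mafg by 0.49. None of these 3 ratios overlapped between groups, and each had the smallest p that this exact permutation test allows, 0.1 (adjusted 0.14). The 3 ratios are not separate results, since any 2 of them fix the third.

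**Figure D2:**
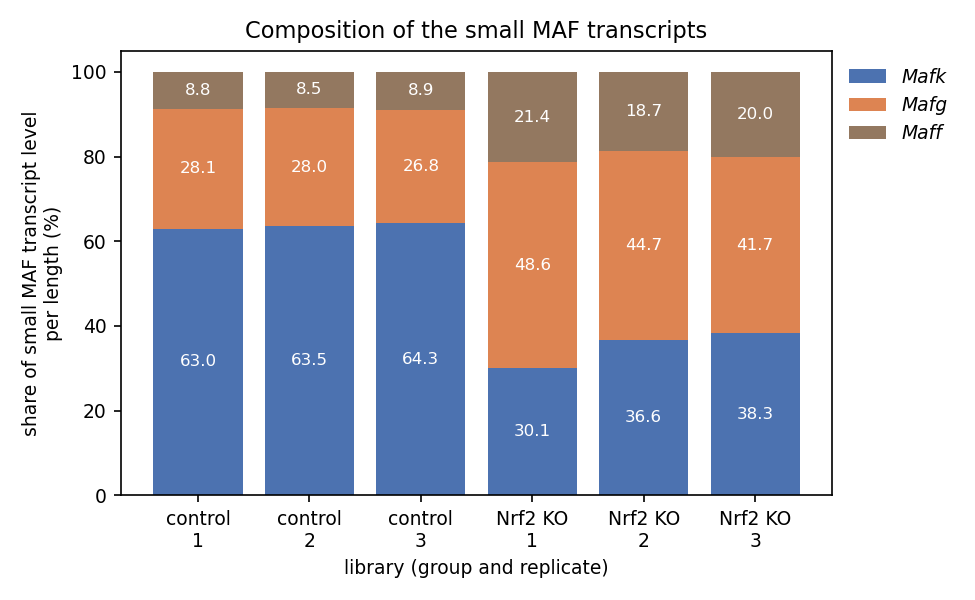
Share of each small MAF gene in the summed small MAF transcript level per length, in percent, for each of the 6 libraries. Mafk has between 63.0% and 64.3% in the control libraries and between 30.1% and 38.3% in those labelled Nrf2 KO.

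Bach1, the repressor that competes for the small MAF partners, had a fold change close to that of Nfe2l2 but did not pass the test. It measured 4.90, 18.1 and 10.1 CPM in controls 1 to 3 against 6.74, 48.2 and 40.4 CPM under the knockout label. The groups overlapped through replicate 1 labelled Nrf2 KO, which lay below control replicates 2 and 3, while the libraries of each number differed in the same direction, by 0.46, 1.41 and 1.99 on the log2 scale. On the log2 scale the fold change was 1.52 (SE 0.78, edgeR quasi-likelihood, adjusted p = 0.295). With the replicate number as a block, it was 1.32 (SE 0.31) and passed (adjusted p = 0.0472). Under that block, 10.4% of all tested genes were called higher and 7.92% lower, and 3 of the 8 genes were called higher, Nfe2l2, Maff and Bach1. Bach1 was also called without replicate 1 labelled Nrf2 KO, at 2.00 (SE 0.47, adjusted p = 0.0226), a fit that called 15.6% of tested genes higher and 14.5% lower. Without both replicate 1 libraries it was 1.65 (SE 0.24, adjusted p = 0.00122), where 24.0% of tested genes were called higher and 22.1% lower.

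Nfe2l1 encodes NRF1, which is anchored in the endoplasmic reticulum and cleaved before it acts. Control libraries had 105.2, 205.9 and 167.9 CPM and the libraries labelled Nrf2 KO had 66.9, 265.6 and 243.3 CPM. Replicate 1 labelled Nrf2 KO was the lowest of all 6 libraries, and the other 2 of that group were the highest. Its log2 fold change was 0.27 (SE 0.53, edgeR quasi-likelihood, adjusted p = 0.819). Without replicate 2 labelled Nrf2 KO it was -0.04. Without both replicate 1 libraries it was 0.45 and passed (adjusted p = 0.0141), where 24.0% of tested genes were called higher and 22.1% lower. There were 1.42, 1.63 and 1.74 Nfe2l1 counts for each Nfe2l2 count in controls 1 to 3 against 0.169, 1.13 and 1.19 under the knockout label. Like the Keap1 ratio, this ratio holds the Nfe2l2 rise and is not a result separate from the levels. The mean log2 ratio of Nfe2l1 to Nfe2l2 differed by -1.38 with no overlap (exact permutation p = 0.1, adjusted 0.14), and by -0.46 without replicate 1 labelled Nrf2 KO. That of Bach1 to Nfe2l2 differed by -0.18 with overlap (exact permutation p = 1).

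**Figure D3:**
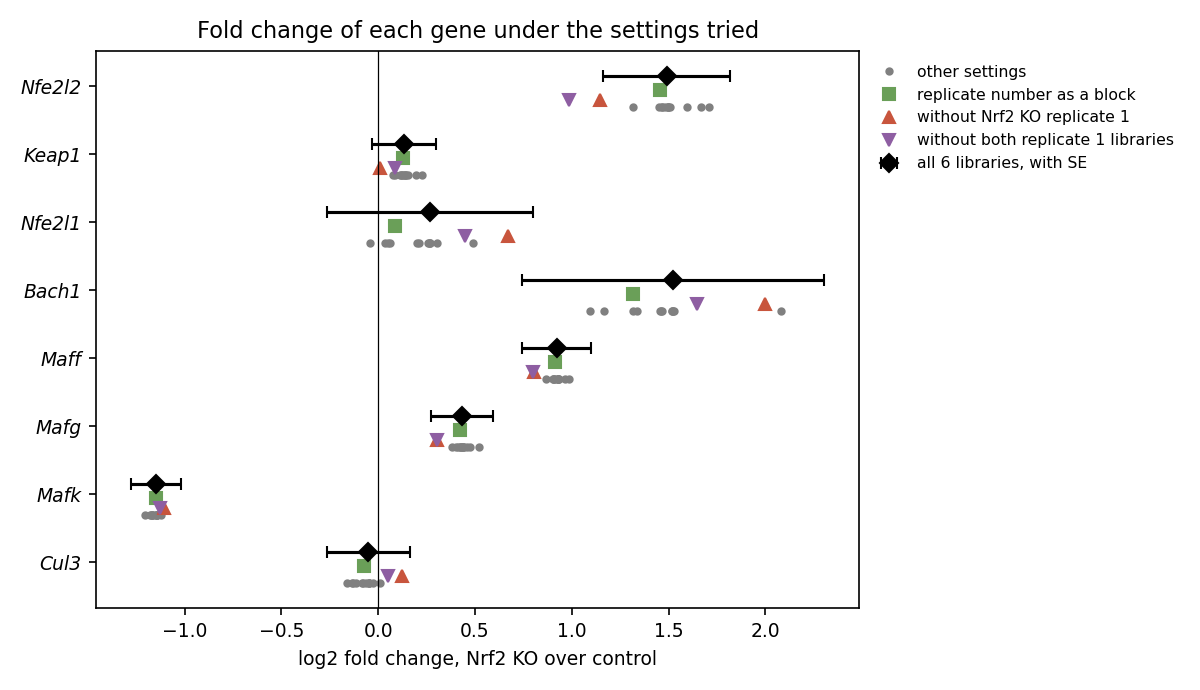
Log2 fold change, Nrf2 KO label over control, of each of the 8 genes, under each way of processing the counts that was tried; black diamonds with the SE as bars use all 6 libraries, and the other marks are the alternatives. Mafk stays between -1.21 and -1.11 in 14 of these fits, whereas Nfe2l1 and Cul3 lie on both sides of 0.

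The spread within groups differed widely among the 8 genes. Within groups the SD on the log2 scale was 1.29 for Bach1 and 0.862 for Nfe2l1, above those of 98.8% and 91.8% of tested genes. It was 0.447 for Nfe2l2 and 0.272 for Cul3, against a median of 0.349 over tested genes. The 3 small MAF genes and Keap1 lay at 0.170 or below. Part of this spread lay between replicate 1 and the other replicates. For Bach1, replicates 2 and 3 exceeded replicate 1 by 1.46 on the log2 scale in the control group and by 2.70 in the group labelled Nrf2 KO. Nfe2l1 differed likewise, by 0.82 and 1.93. For Nfe2l2 the difference was 0.57 in the control group and -0.85 in the other, and Maff (0.04 and -0.32) and Mafg (0.02 and -0.35) also changed sign. For Mafk it was 0.08 and 0.14. Across 12614 genes the replicate 1 difference in one group and in the other had a Spearman correlation of 0.830, given as a description since genes are not independent. The labels do not say what the replicate numbers mark, and the part of that contrast in these results was not tested.

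**Figure D4:**
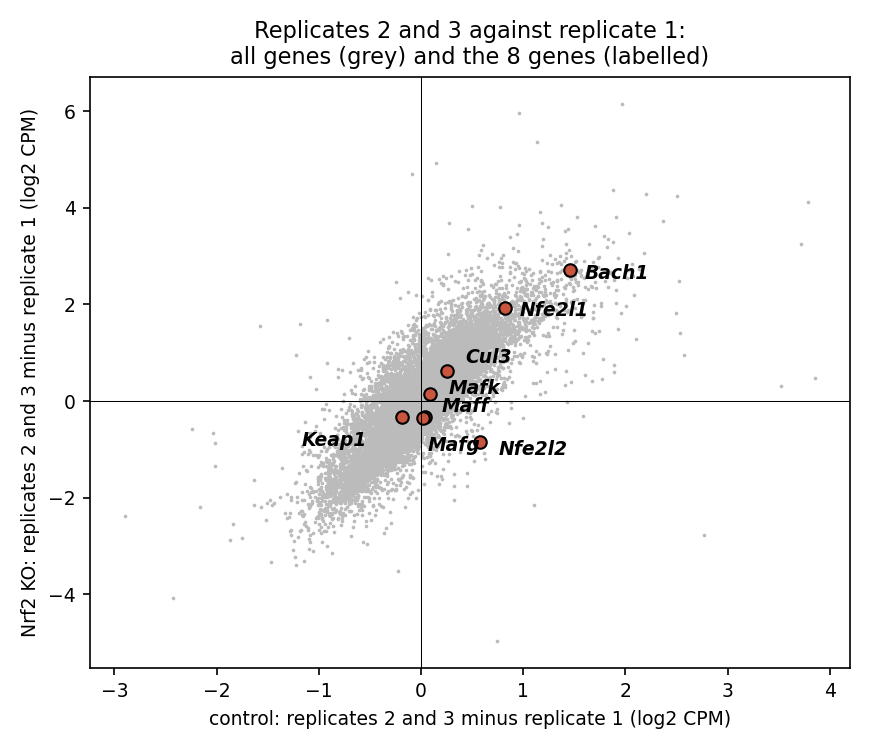
Mean log2 CPM of replicates 2 and 3 minus that of replicate 1, in the control group on the horizontal axis and in the group labelled Nrf2 KO on the vertical axis; grey points are 12614 genes and the named points are the 8 genes. Bach1 and Nfe2l1 lie toward the upper right, and Nfe2l2 is positive in the control group and negative in the other.

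Levels between genes were compared only per length, as CPM per kilobase with the implied lengths, so that the control means equal the authors' FPKM by construction. In the control libraries the order was Nfe2l2 (33.8 ± 8.92, SD, n = 3), Cul3 (33.1 ± 3.11), Nfe2l1 (29.1 ± 9.21), Mafk (22.3 ± 0.774), Mafg (9.68 ± 0.491), Keap1 (8.84 ± 0.763), Maff (3.06 ± 0.0303) and Bach1 (2.68 ± 1.62). The ranges of neighbours overlapped except between Mafk and Mafg and between Keap1 and Maff. In the libraries labelled Nrf2 KO, Nfe2l2 stood alone at the top with 95.6 ± 42.5 CPM per kilobase. Nfe2l1 (33.7 ± 18.0) and Cul3 (31.3 ± 5.22) followed and overlapped each other. Below them came Mafg (13.0 ± 2.90), then Mafk (9.92 ± 0.139), Keap1 (9.65 ± 2.10), Bach1 (7.38 ± 4.96) and Maff (5.78 ± 1.20). In that group Cul3 and Mafg did not overlap, nor did Mafg and Mafk, while the other neighbours did.

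Genes with the most similar pattern over the 6 libraries were taken by Pearson's r of log2 CPM among 9600 genes of at least 5 CPM, as a description over libraries that fall into 2 groups. For Nfe2l2 these were Arhgap42 and Col5a2 (r = 0.998 each) and Spire1 (0.997), and 187 genes had an r above 0.95. For Maff they were Gpr176, Gtf3c5 and Ephb3 (0.999 each), with 454 genes above 0.95. For Mafk they were Olfml2a and Pdk2 (0.999 each) and Ptprz1 (0.998), with 309 above 0.95.

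Most other members of the CNC and MAF families had few counts. Of the other CNC factors, Bach2 had 1.39 ± 0.0995 CPM in the control libraries and 1.87 ± 0.257 in those labelled Nrf2 KO, and Nfe2 had 0.504 ± 0.221 and 0.130 ± 0.146. Neither was called by edgeR or DESeq2 or had an unadjusted p under 0.05, and Nfe2l3 did not reach the tested levels. Of the 4 large MAF factors, which unlike the small ones carry an activation domain, Nrl had 0 counts. Mafa fell from 3.12 ± 0.551 to 1.40 ± 0.210 CPM, a log2 fold change of -1.15 (edgeR quasi-likelihood, adjusted p = 0.0475). Maf, at 55.3 ± 5.33 CPM in the control libraries and 75.8 ± 2.71 in those labelled Nrf2 KO, did not pass (0.45, adjusted p = 0.101). The Mafa call was lost without any 1 of 5 libraries, replicate 1 labelled Nrf2 KO being the exception.

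Around KEAP1 and CUL3, none of 17 tested genes of CUL3 ligase assembly and neddylation was called by edgeR, and none had an unadjusted p under 0.05. By DESeq2, 1 of the 17 was called lower, where it called 9.02% of all tested genes lower. Their median log2 fold change was -0.01. Cand1, which exchanges cullin adaptors, was at 228 ± 40.7 CPM in the control libraries and 317 ± 108 in those labelled Nrf2 KO. Cops2, a subunit of the signalosome that removes NEDD8, was at 200 ± 11.8 and 184 ± 5.11. Of 7 genes listed as competitors of the pairing of KEAP1 with NRF2, none was called by edgeR or DESeq2 or had an unadjusted p under 0.05. Their median log2 fold change was 0.04. Sqstm1, the autophagy receptor p62, was at 450 ± 66.1 and 522 ± 176 CPM, and the related Nbr1 at 204 ± 6.54 and 225 ± 22.6. Among 11 genes of KEAP1-independent NRF2 turnover, which acts through the kinase GSK3 and other ligases, edgeR called 0, and 2 were higher at an unadjusted p under 0.05, as were 13.4% of all tested genes. These were Gsk3b (0.54, adjusted p = 0.0666) and Cul1 (0.65, adjusted p = 0.0855), named after their values were seen. With the replicate block 2 of the 11 were called higher, as they were by DESeq2.

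Of 4 tested genes of BACH1 turnover, 1 rose. It was Trim21, known best as a cytosolic antibody receptor with ubiquitin ligase activity, at 4.01 ± 0.233 CPM in the control libraries and 14.7 ± 3.84 in those labelled Nrf2 KO. Its log2 fold change was 1.88 (edgeR quasi-likelihood, adjusted p = 0.00813), and the call was lost without any 1 of the control libraries. Of 7 genes of NRF1 processing, edgeR called 0. Vcp, the ATPase that extracts NRF1 from the membrane, was at 842 ± 176 and 705 ± 293 CPM. Ogt, which adds GlcNAc to the factor, was at 177 ± 10.6 and 114 ± 25.7 (adjusted p = 0.121). At an unadjusted p under 0.05, 1 of the 7 was higher and 1 lower, and the replicate block and DESeq2 each called 1 higher and 1 lower, against 10.4% and 7.92% of all tested genes with the block. Among 10 coactivators and antagonists of NRF2, Med16, a Mediator subunit, rose from 33.1 ± 4.04 to 52.6 ± 2.82 CPM (0.67, adjusted p = 0.0472). That call was lost without any 1 of 5 libraries, replicate 1 labelled Nrf2 KO being the exception.

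Targets of the 3 DNA-binding factors were read as the other end of the pathway. Of 26 tested NRF2 target genes, 0 were called higher and 3 lower, and 16 had a negative log2 fold change, with a median of -0.18. At an unadjusted p under 0.05, 7 of the 26 were lower and 0 higher, against 11.6% and 13.4% of all tested genes. DESeq2 called 6 lower and 0 higher, against 9.02% and 10.9%. Gstp1 and Ephx1 were among those called. Gstp1, a glutathione transferase whose reads may be split with near copies of the gene, fell from 1305 ± 359 to 483 ± 66.8 CPM (-1.43, edgeR quasi-likelihood, adjusted p = 0.0252). Ephx1, an epoxide hydrolase, was low throughout, with 67, 68 and 55 counts in controls 1 to 3 against 0, 4 and 5 under the knockout label (adjusted p = 0.0139). The count called lower was 6 with the replicate block and 7 without replicate 1 labelled Nrf2 KO, where 1 was called higher. It was 0 or 1 without any 1 of the other 5 libraries. Without both replicate 1 libraries 9 were called lower and 4 higher, where 22.1% of all tested genes were called lower and 24.0% higher.

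Of 9 tested BACH1 targets, 1 rose and 1 fell. At an unadjusted p under 0.05 by edgeR, 1 of the 9 was higher and 2 lower. Several of the 9, Hmox1 among them, are also in the list of NRF2 targets, so the lists are not separate. Slc40a1, the iron exporter ferroportin, rose from 0.962 ± 0.0759 to 4.11 ± 0.575 CPM (2.09, edgeR quasi-likelihood, adjusted p = 0.00638). Its call was lost without control replicate 3. Fech, which inserts iron into heme, fell from 13.9 ± 0.626 to 3.45 ± 0.524 CPM (-2.01, adjusted p = 0.00377). Hmox1, the heme oxygenase that is the best known BACH1 target, was at 43.3 ± 1.51 CPM in the control libraries and 36.1 ± 1.14 in those labelled Nrf2 KO and was not called (-0.26, adjusted p = 0.268). Of 33 proteasome genes under NRF1, 2 were called lower and 0 higher, and 28 had a negative log2 fold change, with a median of -0.29. At an unadjusted p under 0.05, 9 of the 33 were lower and 0 higher, against 11.6% and 13.4% of all tested genes, and DESeq2 called 6 lower and 0 higher, against 9.02% and 10.9%. Psma2, a subunit of the core particle, fell from 304 ± 60.8 to 138 ± 13.5 CPM (-1.14, adjusted p = 0.0233). Pomp, the chaperone of core assembly, fell from 282 ± 18.9 to 75.4 ± 38.0 CPM (-1.90, adjusted p = 0.0491). The proteasome count called lower was 4 with the replicate block and 7 without replicate 1 labelled Nrf2 KO, and 0 without any 1 of the other libraries. Without both replicate 1 libraries 11 were called lower and 3 higher, where 22.1% of all tested genes were called lower and 24.0% higher.

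**Figure D5:**
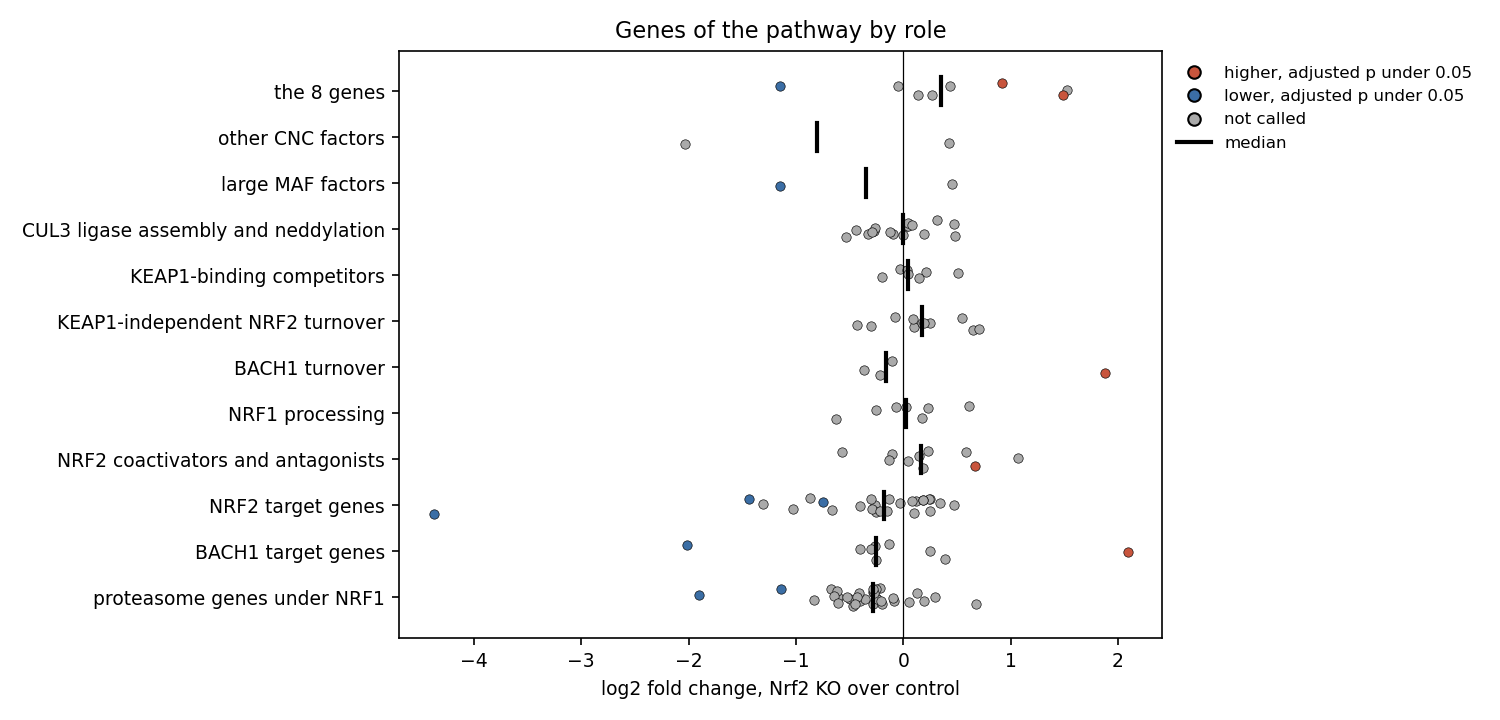
Log2 fold change, Nrf2 KO label over control, of each tested gene of the pathway, by role; each point is a gene, the black line is the median of its row, and red and blue points were called higher and lower by edgeR. The medians run from -0.80 for the 2 other CNC factors to 0.35 for the 8 genes.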

How the data were processed

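RNA was measured in 6 libraries of HEI-OC1, 3 of the control and 3 labelled Nrf2 KO. The deposited counts are whole numbers per gene symbol. The submitters' processing notes name HISAT2, fastp, FastQC, DESeq2 1.34.0 and the human build hg18, without roles. The symbols follow rat nomenclature (650 begin with RGD) although the labels give mouse cells, so levels between genes carry that uncertainty. No counter, strand setting or annotation is given in the sources used here. The authors' FPKM values were deposited as 1 value per group, with no account of how they were made. They served here to derive gene lengths, with CPM from unscaled totals.

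The test was edgeR 4.0.16 (R 4.3.3) with filterByExpr (minimum count 10, minimum total count 15), TMM scaling, robust quasi-likelihood fits with group as the only term, two-sided p-values and Benjamini-Hochberg adjustment over all 14618 genes at 0.05. The code was tested on simulated data. CPM are TMM-scaled and given with the SD of 3 libraries. Log2 CPM had a prior count of 2. Alternatives used other scalings and filters, DESeq2 1.42.0, limma-voom in limma 3.58.1, a replicate block, and each library left out. Leaving out both replicate 1 libraries was added after seeing the data.

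Deviations from group means correlated at 0.754, 0.696 and 0.310 between libraries numbered 1, 2 and 3, all above the limit of 0.1. Control replicate 2 with Nrf2 KO replicate 3 (0.539) and control replicate 3 with Nrf2 KO replicate 2 (0.278) passed it too. Pairs of replicate 1 with another number lay between -0.749 and -0.318. Deviations sum to 0 within a group, so a shared contrast of replicate 1 can give this pattern. It does not show that replicates 2 and 3 match by number. The numbers were treated as pairing the libraries, which rests on the counts, since the labels do not say it. The main fit and the permutation tests leave the pairing out, and the replicate block is an alternative; exchange within 3 pairs could not give an exact p below 0.25. No libraries were near duplicates. Totals of at least 29130007 counts left at least 192 counts for each of the 8 genes in each library.

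The genes and lists were chosen with earlier results of these data known. The text names all 8 genes, up to 4 called genes of each list with the smallest p or the 2 with the highest mean CPM where none was called, and the 3 genes most like each called one of the 8. Hmox1, Gsk3b, Cul1, Maf and Nrl lie outside this rule. Some genes that the rule takes are left out.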

Additional observations from a re-analysis of the deposited data

How the results depend on the processing

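Across 14 other ways of processing the counts, the log2 fold changes of Nfe2l2, Maff, Mafk, Mafg, Keap1 and Bach1 kept their direction each time. Mafk passed in 13 of them, Maff in 9, Nfe2l2 in 7 and Bach1 in 2, and Keap1, Nfe2l1, Mafg and Cul3 in 0. Of all tested genes 1211 were called, against 2916 with DESeq2, 2678 with the replicate block, between 196 and 4485 when 1 library was left out, and 6793 without both replicate 1 libraries, an alternative chosen after seeing the data. The lowest of these was without control replicate 3 and the highest without replicate 1 labelled Nrf2 KO. Of the 8 genes, 2 were called higher, against 1 with upper-quartile scaling, 1 with library size alone, 3 with the replicate block, 0 to 3 when 1 library was left out and 5 without both replicate 1 libraries. The 1 called lower became 0 to 1 when 1 library was left out. The replicate block changed no other call among the 8 genes than that of Bach1. Some values changed sign. The log2 fold change of Nfe2l1 lay between -0.040 (without replicate 2 labelled Nrf2 KO) and 0.67 when 1 library was left out. That of Cul3 lay between -0.16 and 0.12, being 0.0095 without control replicate 3, 0.12 without replicate 1 labelled Nrf2 KO and 0.051 without both replicate 1 libraries. The log2 ratio of Bach1 to Nfe2l2 lay between -0.78 and 1.01 when 1 library was left out, being 0.09 without control replicate 2 and 1.01 without replicate 1 labelled Nrf2 KO, and was 0.71 without both replicate 1 libraries. The ratio of Cul3 to Keap1 lay between -0.39 and 0.12, the highest without replicate 1 labelled Nrf2 KO. The cause of these changes was not tested. Where 1 library is left out, fewer libraries set the spread. Depth does not limit the 8 genes, the lowest of which had 192 counts in a library.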
